A study of Saccharomyces cerevisiae with 4 samples.

Results

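The genes described here encode the proteasome of Saccharomyces cerevisiae and Rpn4, the transcription factor that activates its genes. They are 33 genes chosen by systematic name, out of 6207 genes listed in the deposited table: 14 subunits of the 20S core, 6 ATPases and 12 non-ATPase subunits of the 19S regulatory particle, and RPN4. The rule uses no measured value, although the set was proposed with earlier results of these data known. All 33 had a row, and 31 of them (93.9%) had a ratio on all 4 arrays, whereas 2925 of all genes (47.1%) did. The ATPase gene RPT5 and the non-ATPase gene RPN1 had ratios on 3 arrays.

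The cells were a mid2 mutant in the BY4741 background, where Mid2 is a membrane protein that senses damage to the wall; the labels do not describe the allele. Each culture in rich medium at 24 °C was split, and caspofungin, an antifungal drug that blocks glucan synthesis in the wall, was added to one part at 15 ng/ml for 2 h, while the other part stayed untreated. Both sides of every ratio thus carry the mid2 mutation, and no strain with intact MID2 was on these arrays. RNA of 2 cultures was hybridised to 4 two-colour arrays with swapped dyes: the caspofungin RNA carried Cy3 on arrays 1 and 3 and Cy5 on arrays 2 and 4, and which arrays share a culture is not given in the labels. MID2 was blank on all 4 arrays, so the genotype was not checked by these ratios. BY4741 is of mating type a. Of 6 genes specific to that mating type 5 had ratios on all 4 arrays, and of 4 genes specific to the alpha type 0 did, although MF(ALPHA)2 had 3 ratios and SAG1 had 1; ratios carry no level, so purity cannot be read from them.

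The proteasome is the main protease for ubiquitin-tagged proteins in the cytosol and nucleus. Its 20S core is a stack of outer alpha rings, which gate the entry, and inner beta rings, which hold the proteolytic sites. The 19S particle caps the core: a ring of Rpt ATPases unfolds substrates and pushes them inward, and the Rpn subunits bind ubiquitin chains, cut them off and hold the cap together. In yeast, Rpn4 binds a shared promoter element of the subunit genes and is itself a rapidly degraded substrate of the proteasome, which closes a feedback loop.

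The values are the authors' deposited log2 ratios. For each gene, 2 quantities were formed from the 4 arrays. The first is the mean log2 ratio, in which dye bias cancels when the authors had turned the ratios so that caspofungin is always on top. The second, called the orientation term here, is the mean of arrays 1 and 3 minus the mean of arrays 2 and 4, divided by 2, and it holds whatever followed the dye labels. Neither the labels nor the table state whether the ratios were turned. If they were, the mean is the caspofungin effect and the orientation term is a dye difference; if they were not, and each ratio is Cy5 over Cy3, the orientation term with its sign reversed is the caspofungin effect. Which dye was divided by which is not stated either. HIS3 and LEU2, which are not functional in BY4741, changed sign with the dyes (log2 ratios -0.63, 0.40, -0.64 and 0.39 for HIS3 and -0.58, 0.24, -0.64 and 0.25 for LEU2 on arrays 1 to 4), whereas the control row 3XSSC was positive on every array (0.26, 0.10, 0.997 and 0.44) and the Arabidopsis control row was of mixed sign (-0.62, 0.10, 0.13 and 0.73). HSP12, a stress-induced membrane protein gene, kept 1 sign through the swaps at 4.73, 3.14, 3.63 and 4.08, a mean of 3.90 ± 0.67 (SD, n = 4) with an orientation term of 0.28. Its mean was the 1 in the table to pass the test used here (limma, adjusted p = 0.0196). The turning is not stated, so both quantities are given for the proteasome genes, and signs are those of the deposited values.

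Proteasome genes as a set had ratios that mirrored each other between the dye orientations and means close to 0. The mean log2 ratio of the 31 measured genes ran from -0.25 (RPN9) to 0.40 (RPN2) with a median of 0.000872, beside a median of -0.13 over all 2925 genes tested. The median orientation term was 0.20, beside -0.05 over all genes. It was larger in size than the mean ratio in 28 of the 31 genes (90.3%), beside 53.7% of all genes. The ratios themselves were small: of the 130 member values, 3 were at least 2-fold in either direction, namely RPT4 (1.50) and RPN8 (1.09) on array 1 and RPN1 (1.14) on array 3, all in log2.

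**Figure D1:**
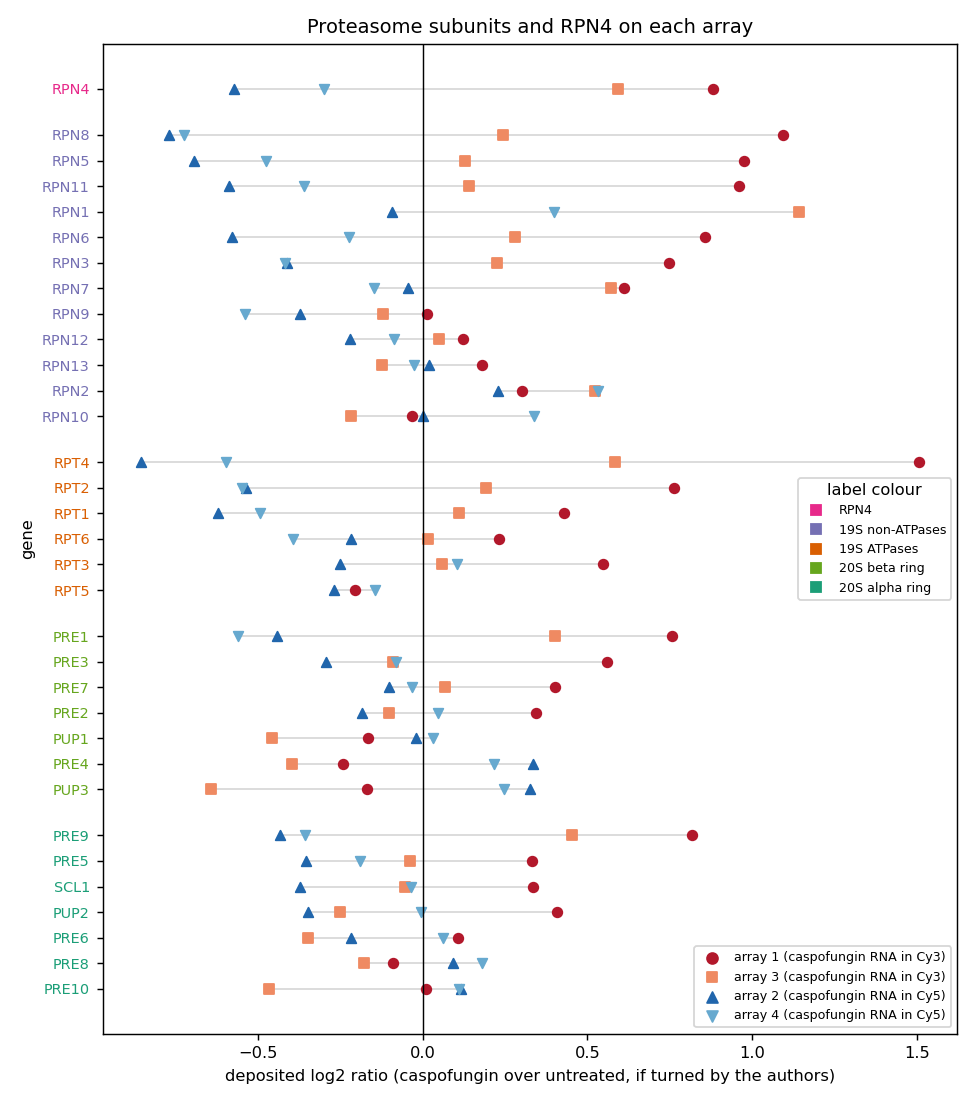
Deposited log2 ratio (x axis) of each of the 33 genes (y axis) on each of the 4 arrays; red and orange points are arrays with the caspofungin RNA in Cy3, blue points those with it in Cy5, grey lines join the lowest and the highest value, and label colours give the class. In most 19S genes and in RPN4 the red and orange points lie right of 0 and the blue points left of it, while RPN2 is positive on every array.

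The sign pattern shows the mirroring gene by gene. Above 0 on both Cy3 arrays (1 and 3) and below 0 on both Cy5 arrays (2 and 4) were 15 of the 31 genes (48.4%), beside 13.4% of all genes tested. The opposite pattern was seen in 3 genes (9.68%), PRE8, PRE4 and PUP3, beside 19.7% of all genes. RPN2 was the 1 gene positive on all 4 arrays (background 6.87%), and 0 genes were negative on all 4 (background 19.3%).

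No proteasome gene passed the test on the mean log2 ratio (0 of 31; limma, adjusted p under 0.05), beside 0.0342% of all genes, which is HSP12 alone. At an unadjusted p under 0.05, RPN2 and RPN7 had positive means (2 of 31, background 6.84%) and RPN9 a negative mean (1 of 31, background 18.5%). On the orientation term 0 of 31 passed after adjustment, and 0% of all genes did; the lowest adjusted p over all genes was 0.0763, which RPN4, RPT4 and PRE9 shared. At an unadjusted p under 0.05 the term was positive in 12 members (38.7%), beside 11.8% of all genes, and negative in 2, PUP3 and PRE4, beside 20.5%. The 12 were PRE9, PRE1, RPT1, RPT2, RPT4, RPN3, RPN5, RPN6, RPN7, RPN8, RPN11 and RPN4. The number of members past the adjusted test on the orientation term depended on how arrays were paired. It was 7 with arrays 1 and 2 taken as a culture, beside 485 of all 2925 genes. With arrays 1 and 4 taken as a culture it was 0, beside 0 of all genes. For the orientation term, leaving out an array leaves 1 array in an orientation, so only the size is given for those fits. The members' median term was then 0.10, 0.16, 0.29 and 0.25 without arrays 1, 2, 3 and 4. With array 1 or 3 left out, the spread in the fit comes from arrays 2 and 4 alone.

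RPN4 (YDL020C), the activator, was among the genes with the clearest mirroring. Its log2 ratios were 0.88, -0.57, 0.59 and -0.30 on arrays 1 to 4. Both arrays with caspofungin RNA in Cy3 lay above 0 and both with it in Cy5 below 0. Its sign pattern was held by 48.4% of the 31 measured genes and by 13.4% of all genes. Among the 31, RPN4 was the highest on array 3 and the 5th highest on array 1. It was the 7th from the lowest on array 2 and the 12th from the lowest on array 4. RPN1, outside the 31 for its blank, was higher on array 3 at 1.14. Its mean was 0.15 ± 0.70 (SD, n = 4 arrays of 2 cultures), which did not pass (limma, adjusted p = 0.405). The orientation term of RPN4 was 0.59 with a fitted standard error of 0.11, a 1.50-fold difference from 1. It was the 96th largest of 2925 genes (limma, unadjusted p = 0.00268, adjusted p = 0.0763). If the deposited ratios were not turned and are Cy5 over Cy3, that term is a log2 ratio of -0.59 for caspofungin over untreated. Over the alternatives the size of the term ran from 0.51 to 0.66.

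The alpha ring, whose subunits gate the core, had a median orientation term of 0.13 over 7 genes. PRE9 (YGR135W), the one core subunit yeast can live without, had the highest mean and the largest orientation term of the ring. Its log2 ratios were 0.82, -0.43, 0.45 and -0.36, a mean of 0.12 ± 0.61 (SD, n = 4), and its orientation term of 0.51 did not pass (limma, adjusted p = 0.0763). PRE9 stood apart from its ring here: the other 6 terms ran from -0.17 to 0.21. PRE6 (YOL038W) had the lowest mean, -0.10 ± 0.22, with ratios of 0.11, -0.22, -0.35 and 0.06 that did not follow the dyes. PRE10 (YOR362C) had the lowest term of the ring, -0.17, from ratios of 0.01, 0.12, -0.47 and 0.11, of which array 3 was the low one. SCL1 (YGL011C), PUP2 (YGR253C) and PRE5 (YMR314W) were positive on array 1 and negative on the other 3, with means from -0.06 to -0.03, and PRE8 (YML092C) lay within 0.18 of 0 on every array.

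The beta ring carries the active sites, and its catalytic genes differed little from 0. PRE2 (YPR103W), which encodes the chymotrypsin-like subunit, had log2 ratios of 0.34, -0.18, -0.10 and 0.05, a mean of 0.03 ± 0.23 (SD, n = 4). PRE3 (YJL001W), the caspase-like subunit gene, had 0.56, -0.29, -0.09 and -0.08, a mean of 0.02 ± 0.37. PUP1 (YOR157C), the trypsin-like subunit gene, had -0.17, -0.02, -0.46 and 0.03, the lowest mean of the ring at -0.15 ± 0.22. In PRE2 and PRE3 array 1 was the high value, and in PUP1 array 3 was the low one. None of the 3 passed on either quantity (limma, adjusted p from 0.313 to 0.906).

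The non-catalytic beta subunits spread to both sides. PRE1 (YER012W) had 0.76, -0.44, 0.40 and -0.56, an orientation term of 0.54 (limma, unadjusted p = 0.00837, adjusted p = 0.0780). PUP3 (YER094C) ran the other way with -0.17, 0.32, -0.64 and 0.25, a term of -0.35 (unadjusted p = 0.0387, adjusted p = 0.136), and PRE4 (YFR050C) did too with -0.24, 0.34, -0.40 and 0.22, a term of -0.30 (unadjusted p = 0.0300, adjusted p = 0.120). Subunits of the same ring therefore had opposite signs on every array. PRE7 (YBL041W) had the highest mean of the ring, 0.08 ± 0.22, with 0.40, -0.10, 0.07 and -0.03.

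The 5 ATPases of the 19S base measured on every array all had positive orientation terms, beside 44.1% of all genes, with a median of 0.41. RPT4 (YOR259C) had the widest range of all members, with log2 ratios of 1.50, -0.85, 0.58 and -0.60. Its mean was 0.16 ± 1.09 (SD, n = 4; limma, adjusted p = 0.516). Its orientation term was 0.88 with a fitted standard error of 0.12, a 1.85-fold difference from 1 and the 23rd largest of 2925 genes (limma, unadjusted p = 0.00305, adjusted p = 0.0763). Over the alternatives the size of that term ran from 0.65 to 1.11. RPT2 (YDL007W), whose product helps open the core gate, had 0.76, -0.54, 0.19 and -0.55, and RPT1 (YKL145W) had 0.43, -0.62, 0.11 and -0.49, a mean of -0.14 ± 0.50 that was the lowest of the 5 ATPases with 4 values. RPT6 (YGL048C) had the same signs at smaller size, 0.23, -0.22, 0.02 and -0.39. These 4 ATPase genes were above 0 on both arrays of one orientation and below 0 on both of the other. RPT3 (YDR394W) broke the pattern on array 4, with 0.55, -0.25, 0.06 and 0.10, and had the smallest term of those 5, 0.19. RPT5 (YOR117W) was blank on array 3 and had -0.20, -0.27 and -0.15 on arrays 1, 2 and 4, a mean of -0.21 ± 0.06 (SD, n = 3). Its term from 3 values was 0.00139, and with RPT5 included the ATPase median was 0.31. RPT5 was outside the fit of genes with 4 values.

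The non-ATPase genes are given by their place in the 19S particle, a division taken from textbook structure after the values were seen. The lid is the part that removes ubiquitin chains. Its 8 measured genes all had positive orientation terms, beside 44.1% of all genes, with a median of 0.47 and a range from 0.12 to 0.71. RPN8 (YOR261C), the non-catalytic partner of the lid's deubiquitinase, had the largest, 0.71, from ratios of 1.09, -0.77, 0.24 and -0.72 (limma, unadjusted p = 0.00919, adjusted p = 0.0780). Over the alternatives its size ran from 0.49 to 0.92. RPN11 (YFR004W), the deubiquitinase itself, had 0.96, -0.59, 0.14 and -0.36, a term of 0.51 (adjusted p = 0.0901). The scaffold genes RPN5 (YDL147W), RPN6 (YDL097C) and RPN3 (YER021W) had terms of 0.57, 0.48 and 0.45 (adjusted p = 0.0805, 0.0894 and 0.0943). In each of these 5 genes array 1 was the highest value and lay well above array 3.

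RPN7, RPN9 and RPN12 are the other lid genes measured here. RPN7 (YPR108W) had 0.61, -0.04, 0.57 and -0.15, a mean of 0.25 ± 0.40 (SD, n = 4; limma, unadjusted p = 0.0469, adjusted p = 0.191) beside a term of 0.34 (adjusted p = 0.0912). RPN9 (YDR427W) had the lowest mean of all members, -0.25 ± 0.25, with 0.01, -0.37, -0.12 and -0.54 (unadjusted p = 0.0486, adjusted p = 0.194). RPN12 (YFR052W) stayed within 0.22 of 0 on every array.

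Outside the lid, RPN2 and the ubiquitin receptor genes had orientation terms from -0.15 to 0.02, while RPN1 had a term of 0.49 from 3 values. RPN2 (YIL075C), a scaffold that carries the receptor Rpn13, had log2 ratios of 0.30, 0.23, 0.52 and 0.53. It was the member with 1 sign throughout and the highest mean of those measured on 4 arrays, 0.40 ± 0.15 (SD, n = 4; fitted standard error 0.10). Its mean did not pass after adjustment over all genes (limma, unadjusted p = 0.0244, adjusted p = 0.173, from 0.0711 to 0.584 over the alternatives), and its orientation term was 0.02. RPN1 (YHR027C), the other large scaffold gene, was blank on array 1 and had -0.09, 1.14 and 0.40 on arrays 2, 3 and 4, a mean of 0.48 ± 0.62 (SD, n = 3), with array 3 far above the others, and it too was outside that fit. The receptor genes RPN10 (YHR200W), with -0.03, 0.00, -0.22 and 0.34, and RPN13 (YLR421C), with 0.18, 0.02, -0.12 and -0.03, had means of 0.02 ± 0.23 and 0.01 ± 0.13.

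**Figure D2:**
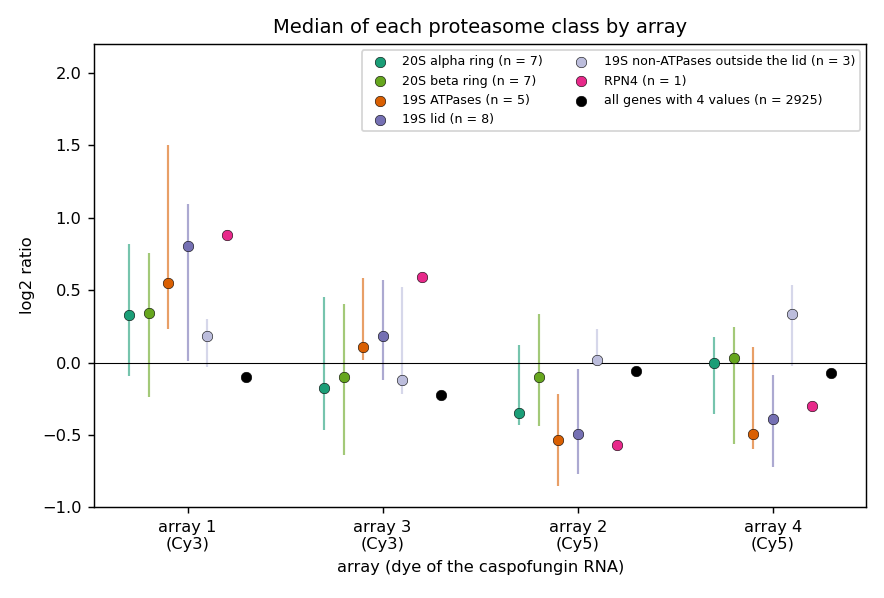
Median log2 ratio (points, y axis) of each proteasome class on each array (x axis, with the dye of the caspofungin RNA in brackets); vertical lines run from the lowest to the highest member, RPN4 is a single gene, and black points are the median of all 2925 genes with 4 values. ATPases and the lid lie above the 20S rings on arrays 1 and 3 and below them on arrays 2 and 4.

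Set side by side, the 19S genes followed the dye orientation more than the 20S genes. Medians of the 16 measured 19S genes were 0.58, -0.39, 0.13 and -0.38 on arrays 1 to 4, and those of the 14 core genes 0.33, -0.20, -0.14 and 0.01. The 19S median thus lay 0.24 and 0.27 above the core median on arrays 1 and 3, and 0.19 and 0.39 below it on arrays 2 and 4. On the mean of 4 arrays the medians were 0.02 and -0.03, a gap of 0.04 whose sign was not stable: it was -0.07, 0.15, -0.05 and 0.18 without arrays 1, 2, 3 and 4, and -0.01 with arrays centred and scaled. The gap of the orientation terms, 0.27, ran from 0.20 to 0.34 over the same settings. Signs above 0 on both Cy3 arrays and below 0 on both Cy5 arrays were held by 11 of 16 measured 19S genes (68.8%) and by 3 of 14 core genes (21.4%), beside the 13.4% of all genes. These are descriptions of the genes, which are not replicates, and no test of the class difference was made.

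The positive median of the core depended on array 1, and that of the 19S particle did not. Without array 1 the median orientation term of the core went from 0.11 to -0.03, and without array 2 to 0.04. Without array 3 it was 0.22 and without array 4 it was 0.16. For the 19S genes the median was 0.38, and 0.31, 0.38, 0.42 and 0.38 without arrays 1, 2, 3 and 4. Array 3 had the widest spread over all genes (SD 0.64 in log2, against 0.41 to 0.50 on the other arrays) and the lowest median (-0.22, against -0.10 to -0.06), and centring the arrays gave core and 19S terms of 0.16 and 0.43.

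The members' profiles can also be compared array by array. Across the 31 genes Pearson's r was 0.79 between arrays 1 and 3 and 0.85 between arrays 2 and 4, which share an orientation, beside 0.65 and 0.79 over all 2925 genes. Between arrays of opposite orientation it ran from -0.84 (arrays 1 and 2) to -0.49 (arrays 3 and 4). Spearman's rho for those pairs ran from -0.85 to -0.62. Over all 2925 genes the opposite-orientation r ran from -0.15 to 0.14 and rho from -0.33 to -0.12. Genes on an array share its dyes and normalization and are not independent, so these are descriptions. The spread between members was 0.31 (SD, log2) for the orientation term and 0.12 for the mean, whereas over all genes both were 0.33.

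**Figure D3:**
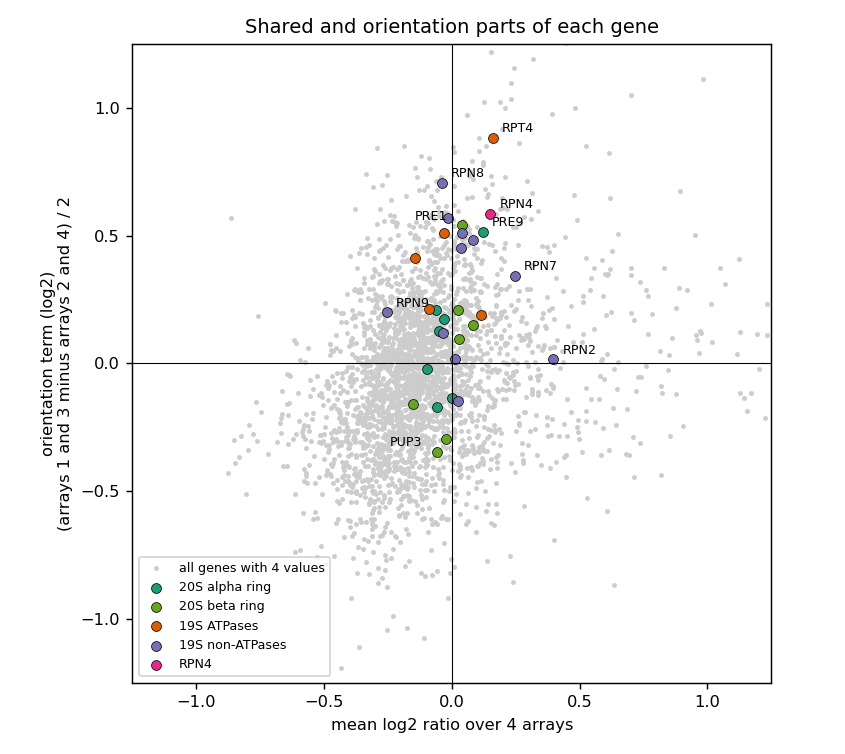
Mean log2 ratio over 4 arrays (x axis) against the orientation term (y axis, log2) for all genes with 4 values (grey) and the measured proteasome genes (coloured by class); 41 genes, none of them a member, lie beyond the axes. The members form a narrow column near a mean of 0 that reaches from PUP3 at -0.35 up to RPT4 at 0.88, and RPN2 lies to its right.

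Some members are close neighbours in the genome. On the RefSeq gene map of assembly R64, RPT4 and RPN8, the genes with the largest terms of the set, are separated by 1 gene, GCD1 (YOR260W), which encodes a translation initiation factor subunit and had a term of 0.08 from ratios of 0.05, -0.44, -0.10 and 0.07. PRE4 and RPN12, also 1 gene apart, had terms of -0.30 and 0.12.

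Genes around the proteasome were taken from 4 lists of 57 genes, of which 35 had ratios on all 4 arrays. None passed on the mean or on the orientation term (0 of 35, limma, adjusted p under 0.05). At an unadjusted p under 0.05 the mean was positive in 4 (UBA1, UBC5, CDC48 and TMC1) (background 6.84%) and negative in 2 (UBC6 and PDR3, background 18.5%). On the orientation term 9 of the 35 were positive at that level (background 11.8%) and 3 negative (background 20.5%). The list medians of the mean log2 ratio were -0.13 for 12 assembly and associated factors, -0.05 for 15 ubiquitin enzymes and 0.21 for 7 Cdc48 and shuttle factors, beside -0.13 over all genes.

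Of the 12 assembly factors 9 had a negative mean, beside 73.0% of all genes. A negative orientation term was found in 8 of the 12, beside 1635 of all 2925 genes. UMP1 (YBR173C), the chaperone of core assembly, had the narrowest range of the 35 genes, with 0.03, 0.05, -0.00 and 0.05. BLM10 (YFL007W), an alternative cap of the core, had -0.02, -0.04, 0.66 and 0.06, so its list-leading mean of 0.16 ± 0.33 (SD, n = 4) came from array 3. RPN14 (YGL004C), a chaperone of 19S base assembly, had the lowest mean of the 12 with 4 values, -0.29 ± 0.25. The median orientation term of the list was -0.09. NAS6 (YGR232W), another base chaperone, had -0.35, 0.45, -1.02 and 0.33, and FUB1 (YCR076C) -0.68, 0.52, -0.73 and 0.59, both opposite in sign to RPT4 and RPN4 on each array; these 2 were picked after their values were seen.

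Among the ubiquitin enzymes, UBA1 (YKL210W), which encodes the ubiquitin-activating enzyme, was positive on every array with 0.72, 0.22, 0.67 and 0.62. Its mean of 0.56 ± 0.23 (SD, n = 4) did not pass (limma, unadjusted p = 0.00539, adjusted p = 0.163). UBC6 (YER100W), a conjugating enzyme of the endoplasmic reticulum, had the lowest mean of the 15 with 4 values, -0.33 ± 0.39. UBI4 (YLL039C), the stress-inducible polyubiquitin gene, followed the dyes as RPN4 did, with 0.30, -0.44, 0.59 and -0.76, an orientation term of 0.52 (adjusted p = 0.0763). The extreme terms of the list, picked after their values were seen, belonged to conjugating enzyme genes: CDC34 (YDR054C) at 0.86, from 1.47, -0.97, 0.79 and -0.23, and UBC7 (YMR022W) in the opposite direction at -0.75, from -0.91, 0.70, -1.12 and 0.28 (adjusted p = 0.0763 for each). UBR2 (YLR024C), the ligase that marks Rpn4 for degradation, had values on arrays 2 and 4 alone, -0.04 and -0.63. Of the regulators known to act on RPN4 transcription, PDR3 (YBL005W) was measured on all arrays, with -0.55, 0.14, -1.10 and -0.18, whereas PDR1 and YAP1 were blank and HSF1 had 1 value.

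Cdc48 is the ATPase that extracts ubiquitin-tagged proteins and hands them to the proteasome. CDC48 (YDL126C) had log2 ratios of 0.99, 0.19, 1.15 and 0.46, a mean of 0.70 ± 0.45 (SD, n = 4), the highest of the 35 genes, and did not pass (limma, unadjusted p = 0.00332, adjusted p = 0.163). All 4 values were positive, and those of arrays 1 and 3 were the higher ones, giving an orientation term of 0.37 (unadjusted p = 0.0232, adjusted p = 0.105). TMC1 (YOR052C), an AN1-type zinc finger gene named after its values were seen, had 1.47, 0.05, 0.84 and 0.24. The cofactor gene NPL4 (YBR170C) had the lowest mean of the 7 with 4 values, -0.01 ± 0.15, and the shuttle gene RAD23 (YEL037C) had 0.18, -0.18, -0.11 and 0.07.

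**Figure D4:**
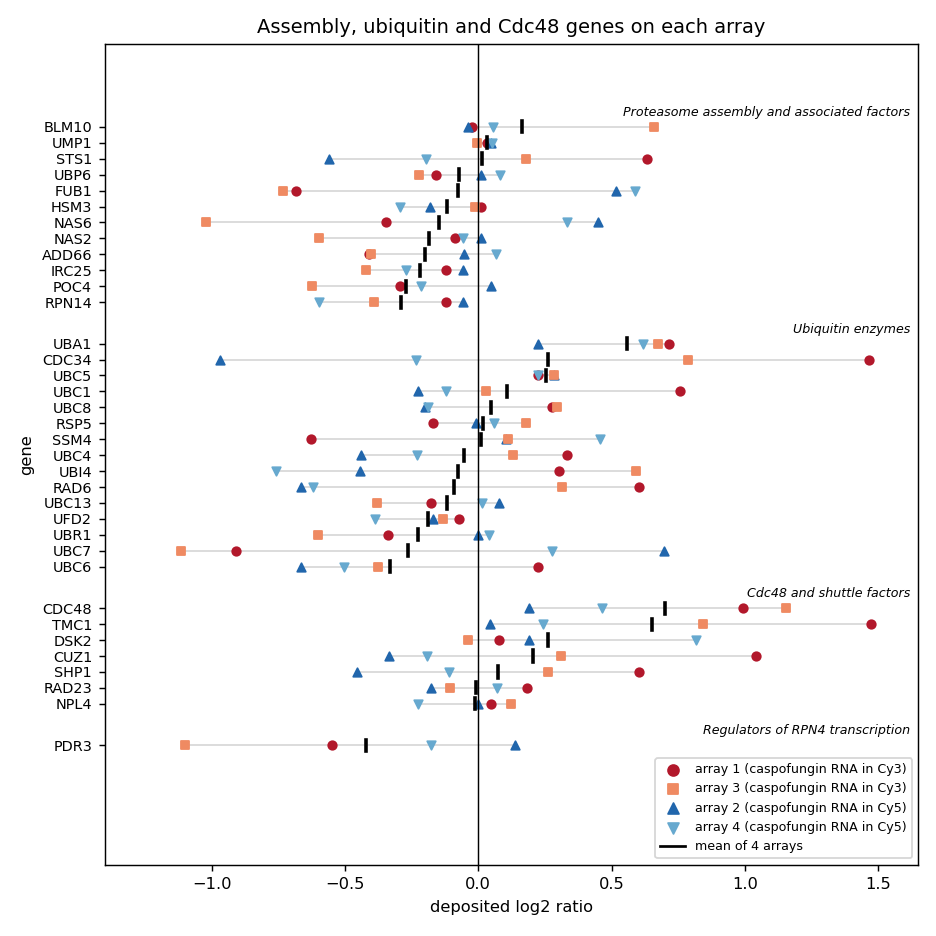
Deposited log2 ratio (x axis) of the 35 assembly, ubiquitin, Cdc48 and regulator genes with 4 values (y axis, ordered by mean within each list); symbols mark the arrays as in the plot of the subunits, grey lines join the lowest and the highest value, and black bars are the mean of 4 arrays. UBA1, CDC48 and TMC1 lie right of 0 on every array, and UMP1 stays near 0.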

How the data were processed

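Expression was measured on 4 two-colour arrays of 2 cultures. The authors deposited 1 log2 ratio per gene and array; the base was read from the values, since 2 raised to the value was a number with 4 decimals (within 2e-06) for 100% of them. How spots were scanned, corrected, normalized and blanked, and the build, was not given in the sources used here; spot intensities were not used, so centring, scale and direction are unknown. The number of arrays limits the precision. Symbols were matched through RefSeq's table for R64 (5654 of 6207 matched, and all 33 members); the 2 control rows were left out of the tests.

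With limma 3.58.1 (R 4.3.3), the mean log2 ratio of each culture, and the orientation term of each culture, were tested against 0 over 2925 genes with 4 values. Arrays of a culture are not identified, so both pairings of opposite dyes were fitted and the higher of both p-values per gene was adjusted by Benjamini-Hochberg (threshold 0.05). The fit was tested on simulated data, where it called large changes and hardly any small ones, so a member that missed the threshold is not shown to be unchanged. Nothing says that the 2 cultures were grown independently, so p-values measure the spread between these samples, which may be technical.

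The members and lists were chosen with earlier results of these data known. Genes given in detail are RPN4, the extremes of each class on either quantity, the catalytic subunits, members with blanks or 1 sign throughout, the mean extremes of each related list and 6 genes fixed by name. SEM1 was not analysed here. The planned search for Rpn4 promoter elements was not run, as no sequences were used here. Alternatives were the pairing, separate arrays (also with a dye term), centring, scaling, genes with at least 3 values, leaving out each array, and the turned direction. For the orientation term, leaving out an array took the remaining arrays as separate replicates, not as cultures. Those fits have 1 array in an orientation, so sizes alone are given from them.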

Additional observations from a re-analysis of the deposited data

Results flagged for a closer look

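Each measured member, class median and related gene was checked for 1 array standing apart from the other 3, in 81 sets of 4 values. No member and no class median did. In BLM10 array 3 (0.66) stood apart, with a gap of 0.864 of the whole range, and in NAS2, a base assembly chaperone gene, array 3 (-0.60, against -0.09 to 0.01 on the others) did, with a gap of 0.839; both exceed Dixon's critical value. Chance alone gives about 1 such case in 20 sets. Array 3 had the widest spread over all genes, and its part in these values was not tested.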

How the results depend on the processing

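No proteasome gene passed on the mean log2 ratio under any alternative run (0 members each, limma), at an unadjusted p under 0.05 from 0 to 3 did as deposited, and 14 did after sign reversal following the dyes. The count over all genes was 1, and 148 when arrays 1 and 4 were paired (1 with arrays 1 and 2), 17 with 4 separate arrays, 109 with a dye term added (chosen after seeing the data), 10 centred, 48 centred and scaled, 0 with genes on at least 3 arrays, 0 after that sign reversal, and from 1 to 61 leaving out an array. On the orientation term, 0 members and 0 genes passed; with arrays 1 and 2 paired 7 members and 485 genes did, with 4 separate arrays 9 and 612, centred 6 and 237, and centred and scaled 12 and 590. Leaving out an array gave from 0 to 18 members and from 0 to 1274 genes, from fits with 1 residual degree of freedom each. Why the counts differ between the alternatives was not tested. The members' median of the mean ran from -0.15 (without array 1) to 0.11 (centred) as deposited and was -0.20 after sign reversal. The median orientation term ran from 0.10 to 0.29. Both moved by less than the spread of the array medians, an SD of 0.29 for the mean and 0.20 within an orientation for the term. The SD of 0.29 includes the difference between orientations, so staying within it does not show that the median of the mean is stable. The orientation term could not be tested with genes on 3 arrays, as 1 culture then has no value.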
